A study of Mus musculus with 12 samples.

Results

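The mitochondrial ribosomal protein genes are the nuclear genes that encode the protein subunits of the ribosome inside mitochondria. The members were chosen by symbol alone, as every gene named Mrpl or Mrps followed by a number and at most 1 letter, and 77 of the 21728 genes in the count files met the rule. The rule itself uses no expression value, but the count files list no value under 10, and the members were chosen with earlier results of these data known. The symbols stand for 50 proteins of the large subunit, 26 of the small subunit and Mrps36, which is no longer counted as a ribosomal subunit. Mrps30 and Mrps18a carry small-subunit symbols but encode large-subunit proteins and were counted there. The 77 members lie on 17 chromosomes, none of them on the X chromosome.

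The libraries came from mouse cells that carry 2 fluorescent reporters, one in Blimp1 (Blimp1-mVenus) and one in Stella (Stella-ECFP), on a C57BL/6 background, which all groups share. Embryonic stem cells were turned into epiblast-like cells (EpiLCs) by 48 h of culture, and EpiLCs were aggregated to make primordial germ cell-like cells (PGCLCs), an in vitro model of the founders of the germ line, which were collected on day 5 as cells positive for both reporters. Bisphenol A (BPA), a plasticizer with estrogen-like activity, was given to EpiLCs at 100 nM for the last 24 h, and untreated EpiLCs received water. Each of the 4 groups has 3 libraries: EpiLCs without and with BPA, and the PGCLCs made along each of these routes, named below after the EpiLC treatment as untreated and as the BPA arm. Whether BPA was also present in the PGCLC medium is not stated. Nor is it stated that the 3 libraries of a group came from separate cultures, so the p-values refer to the spread among these libraries alone, which may be technical.

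Mitochondria keep a small genome of their own that encodes a few subunits of the respiratory chain together with the ribosomal and transfer RNAs needed to translate them. Every protein of the mitochondrial ribosome is encoded in the nucleus, made in the cytosol and imported, and is then assembled with mitochondrial rRNA into a small subunit, which decodes the mRNA, and a large subunit, which forms the peptide bond and threads the new protein toward the inner membrane. Many of these proteins descend from bacterial ribosomal proteins, and others are found in mitochondria alone. In these data 46 members have a bacterial counterpart and 30 are mitochondria-specific.

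Nuclear genes for mitochondrial proteins often have promoters without a TATA box, with sites for ETS-family factors such as GABPA, for NRF1 and for YY1. RefSeq promoters (250 bases before to 50 after a start, GRCm38.p6) were matched by symbol for 68 members, some with more than 1 start, which gave 74 promoters. Not matched were Mrpl4, Mrpl13, Mrpl15, Mrpl19, Mrpl38, Mrpl54, Mrps28, Mrps34 and Mrps35. The letters CCGGAAG (an ETS core) stood on either strand in 33.8% of the member promoters, against 8.86% of all 32851 promoters and 15.5% of the 14412 promoters of protein-coding genes tested for expression here. GCATGCG, a part of the NRF1 site, stood in 10.8% of member promoters, 3.58% of all and 5.86% of those of tested coding genes. ATGGCGG, the YY1 core, stood in 16.2%, 4.05% and 7.10%, and TATAAA in 6.76%, 13.6% and 7.32%. At least 1 of the first 3 strings was present in 48.6% of member promoters and 25.2% of those of tested coding genes. A match of letters is a description and not a binding site.

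The promoters printed here are those of members on which the results below turn, 5′ to 3′ on the gene's strand, with matches to the first 3 strings (either strand) in capitals. Mrps33, Mrpl18 and Mrpl20 had the 3 largest decreases between untreated EpiLCs and PGCLCs.
Mrps33, chr6:39810887-39811186, minus strand: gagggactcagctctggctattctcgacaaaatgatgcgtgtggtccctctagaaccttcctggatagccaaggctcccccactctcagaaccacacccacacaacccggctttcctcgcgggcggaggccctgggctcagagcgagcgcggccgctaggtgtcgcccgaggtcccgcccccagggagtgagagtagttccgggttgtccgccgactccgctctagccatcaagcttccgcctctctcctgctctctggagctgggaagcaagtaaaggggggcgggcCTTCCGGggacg
Mrpl18, chr17:12916042-12916341, minus strand: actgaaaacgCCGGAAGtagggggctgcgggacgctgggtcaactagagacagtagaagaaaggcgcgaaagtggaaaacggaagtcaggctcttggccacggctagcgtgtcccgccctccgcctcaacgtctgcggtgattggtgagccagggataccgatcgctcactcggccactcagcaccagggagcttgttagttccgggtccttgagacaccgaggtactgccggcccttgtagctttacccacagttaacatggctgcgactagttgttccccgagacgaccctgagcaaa
Mrpl20, chr4:155802628-155802927, plus strand: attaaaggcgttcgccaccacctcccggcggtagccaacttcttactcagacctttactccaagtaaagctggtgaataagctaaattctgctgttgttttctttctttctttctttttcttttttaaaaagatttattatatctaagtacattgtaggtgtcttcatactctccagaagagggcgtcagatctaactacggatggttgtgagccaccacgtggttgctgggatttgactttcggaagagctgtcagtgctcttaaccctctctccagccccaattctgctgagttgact
Mrps2 and Mrpl39 were the members that rose in the same comparison.
Mrps2, chr2:28467816-28468115, plus strand: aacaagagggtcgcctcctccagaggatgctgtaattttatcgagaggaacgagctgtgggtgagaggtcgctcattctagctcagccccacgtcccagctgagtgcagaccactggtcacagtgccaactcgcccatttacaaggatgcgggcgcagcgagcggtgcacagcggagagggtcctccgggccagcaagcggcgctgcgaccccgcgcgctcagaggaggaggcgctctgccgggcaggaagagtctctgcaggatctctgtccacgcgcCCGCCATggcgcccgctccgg
Mrpl39, chr16:84735195-84735494, minus strand: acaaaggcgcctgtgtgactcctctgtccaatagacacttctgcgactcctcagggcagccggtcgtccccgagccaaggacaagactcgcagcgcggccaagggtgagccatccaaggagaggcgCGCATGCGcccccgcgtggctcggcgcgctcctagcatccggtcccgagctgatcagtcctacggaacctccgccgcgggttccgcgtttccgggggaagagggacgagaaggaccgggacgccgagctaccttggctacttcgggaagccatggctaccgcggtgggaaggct
Mrps11 and Mrpl46 start head to head on opposite strands, so that these windows overlap.
Mrps11, chr7:78782881-78783180, plus strand: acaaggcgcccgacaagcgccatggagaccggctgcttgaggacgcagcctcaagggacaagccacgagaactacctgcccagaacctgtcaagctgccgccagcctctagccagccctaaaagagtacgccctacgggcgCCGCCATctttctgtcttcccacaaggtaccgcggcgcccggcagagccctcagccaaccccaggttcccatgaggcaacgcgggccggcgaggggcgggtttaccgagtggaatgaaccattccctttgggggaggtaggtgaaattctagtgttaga
Mrpl46, chr7:78783040-78783339, minus strand: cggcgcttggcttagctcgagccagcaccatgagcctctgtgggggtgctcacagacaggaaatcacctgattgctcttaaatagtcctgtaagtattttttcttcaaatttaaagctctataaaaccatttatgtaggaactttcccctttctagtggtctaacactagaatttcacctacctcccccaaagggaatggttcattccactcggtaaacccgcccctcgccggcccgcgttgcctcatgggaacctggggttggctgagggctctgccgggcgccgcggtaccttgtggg
Mrps33 and Mrpl18 each hold 1 ETS core, and the Mrpl39 promoter holds 1 palindromic run that matches the NRF1 string on both strands, with the matches overlapping. Mrps2 and Mrps11 each hold 1 YY1 core. The windows of Mrpl20 and Mrpl46 hold none of the 3 strings, which says only that these letters are not in these windows.

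Gene-assigned counts ran from 11785338 to 22029195 in EpiLC libraries and from 30375633 to 34309195 in PGCLC libraries. All 77 members were listed in every library and passed the filter on low counts in every comparison, and the lowest count of any member was 41. Levels below are CPM, gene counts relative to the scaled library total, 1 per library, scaled over all 12 libraries by the trimmed mean of M values (TMM). The summed markers of the labelled cells followed the labels: EpiLC markers summed to 1295 to 1574 CPM in EpiLCs and 387 to 481 in PGCLCs, and early germ cell markers to 210 to 245 and 1476 to 1868. Of the 8 EpiLC markers 5 were lower and 1 higher in untreated PGCLCs. Dnmt3a and Dnmt3b held most of the EpiLC sum, at 716 and 697 of 1549 CPM in untreated EpiLC replicate 1. Fgf5 was at 6.49 to 7.38 CPM in untreated EpiLCs and 4.11 to 6.79 in untreated PGCLCs. In PGCLC replicates 1, 2 and 3 of the BPA arm Fgf5 was at 12.5, 13.8 and 2.63 CPM. These genes were named after their values were seen. Otx2, named here after its values were seen, went against its label, with 10.1 to 12.3 CPM in EpiLCs and 60.4 to 84.7 in PGCLCs. A bulk library cannot tell fewer cells of a type from less RNA per cell. The libraries of each stage carry their own naming scheme in the labels, so the stage and any batch that goes with it cannot be told apart.

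One library, untreated EpiLC replicate 3, differed from the rest in its members. In it 76 of the 77 members were above the mean of untreated EpiLC replicates 1 and 2, with a median log2 ratio of 0.71 (CPM plus 1), and 17 members were at least 2-fold higher. Mrpl52 had the highest ratio, 1.73, and Mrps2 the lowest, −0.14. The medians of the same ratio in the 9 libraries of the other 3 groups ran from −0.13 to 0.12. The summed cytosolic ribosomal protein genes took 14.3% of the counts of this library and 8.35% to 9.05% of the other untreated EpiLC libraries, and over all genes tested its ratio correlated with the length of the longest transcript at Spearman's rho −0.52, across genes, which are not independent replicates. Some results changed when this library was left out, as given below, and why it differs was not tested. Counts and the leading members of the untreated stage comparison, the EpiLC comparison and the interaction are therefore given without it as well. One label of this library carries another replicate number than its title, and the title was followed.

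**Figure D1:**
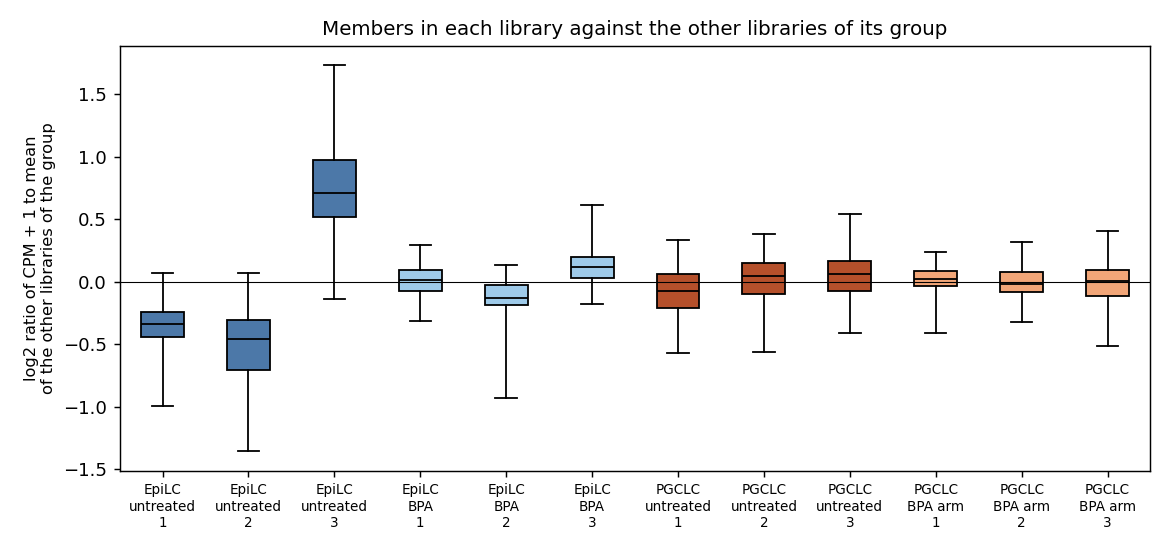
Boxes show, for each of the 12 libraries, the log2 ratio of the 77 members (CPM plus 1) to the mean of the other libraries of the same group, with the median, the quartiles and whiskers to the lowest and highest member. Untreated EpiLC replicate 3 has a median of 0.71, whereas the 9 libraries of the other 3 groups have medians between −0.13 and 0.12.

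Summed over all members, the mitochondrial ribosomal protein genes took a smaller share of the counts in PGCLCs than in EpiLCs. The share was 0.454%, 0.424% and 0.655% in the untreated EpiLC libraries (0.511% ± 0.126, SD, n = 3) and 0.449%, 0.438% and 0.471% in BPA EpiLCs (0.453% ± 0.0165, n = 3). In untreated PGCLCs it was 0.318%, 0.344% and 0.337% (0.333% ± 0.0133, n = 3), and in PGCLCs of the BPA arm 0.283%, 0.282% and 0.296% (0.287% ± 0.00797, n = 3). Every EpiLC library lay above every PGCLC library, every untreated PGCLC library lay above every PGCLC library of the BPA arm, and the EpiLC arms overlapped. The summed large-subunit counts were 2.44 ± 0.0961 times the small-subunit counts in untreated EpiLCs, 2.42 ± 0.0169 in BPA EpiLCs, 2.27 ± 0.0277 in untreated PGCLCs and 2.28 ± 0.0237 in the BPA arm (SD, n = 3 each), so both subunits had smaller shares in PGCLCs. These sums over chosen genes are descriptions and were not tested.

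**Figure D2:**
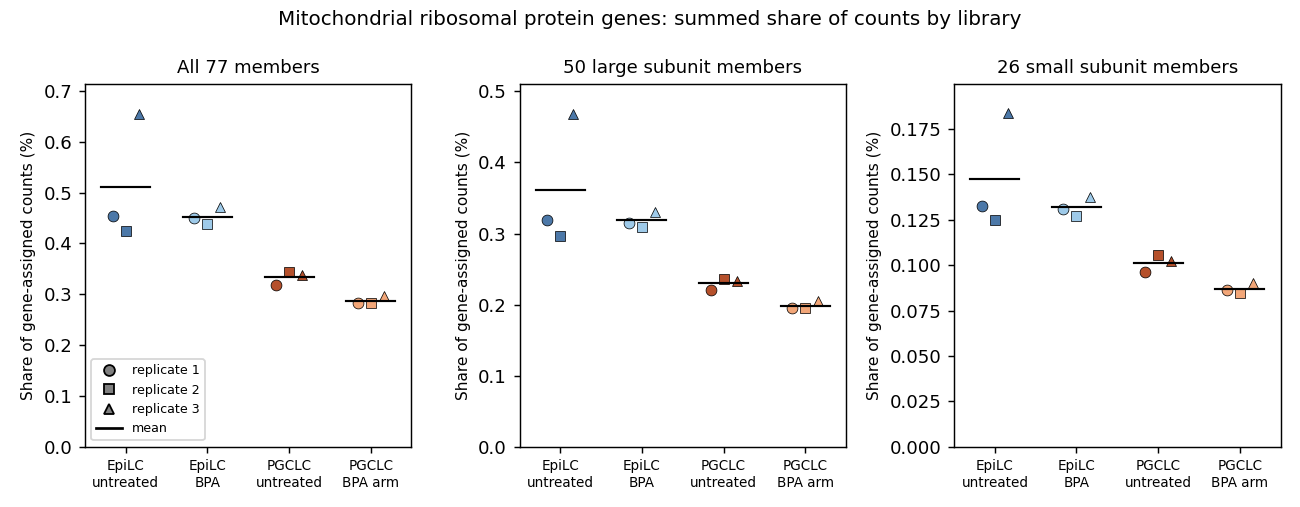
Points give the percent of gene-assigned counts taken by all 77 members, the 50 large and the 26 small subunit members in each library (symbols mark replicates), and lines give group means. All 6 PGCLC libraries lie between 0.282% and 0.344% for all members, below the 6 EpiLC libraries at 0.424% to 0.655%.

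The first comparison asked how the members differ between untreated EpiLCs and the PGCLCs made from them. In untreated cells 53 of 77 members were lower in PGCLCs at an adjusted p under 0.05 (edgeR quasi-likelihood test, Benjamini-Hochberg over all 17608 genes tested), where 25.2% of all genes tested were lower, and 2 were higher, where 30.4% of all genes were. The median log2 change of the members was −0.66, with 69 of 77 negative, against a median of 0.07 over all genes tested. Falls of at least 2-fold passed for 23 members, a count not made over all genes in this fit. All 3 PGCLC libraries lay under all 3 EpiLC libraries for 53 members, against 28.2% of all genes tested. Without untreated EpiLC replicate 3 the counts were 47 lower (24.3% of all 18885 genes then tested) and 8 higher (26.5%), and the median was −0.45. At least 2-fold lower were then 11 of the 77 members and 2152 of the 18885 genes, shares too close to set the members apart. The count without overlap was again 53 (32% of all genes). With offsets for length and GC content 43 were lower and 10 higher, with a median of −0.46. Of the 17586 genes tested with these offsets 4765 were lower and 5211 higher, with a median of 0.04. The BPA arm shares no library with the untreated one. Both arms were tested in 1 fit with a shared estimate of the spread, so their p-values are not independent. In the BPA arm 48 members were lower and 1 was higher, against 25% and 32.5% of all genes tested. The median was −0.67 against 0.13 over all genes. There the stages did not overlap, with PGCLCs lower, for 62 members and for 32.7% of all genes. Markers of other cells moved with the stage. In untreated cells endoderm markers summed to 12.6 to 19.5 CPM in EpiLCs and 782 to 1220 in PGCLCs (12 of 13 higher), mesoderm and stromal markers to 4.53 to 7.77 and 180 to 233 (6 of 8 higher), and blood and endothelial markers to 22.5 to 24.4 and 205 to 230 (5 of 5 tested higher). Of these lists 7, 1 and 5 genes were unlisted in all untreated EpiLC libraries, and the part of these cells in the members' change was not tested.

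**Figure D3:**
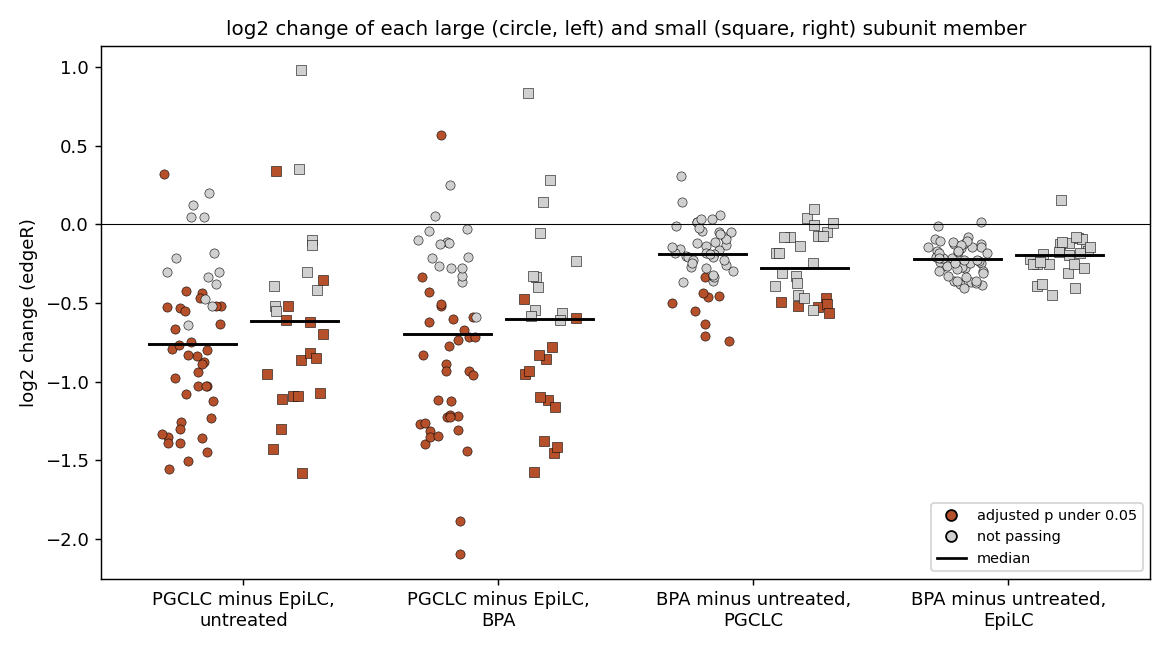
Each point is the fitted log2 change of 1 member in 1 comparison, with large-subunit members as circles on the left and small-subunit members as squares on the right, coloured where the adjusted p was under 0.05, and lines at the medians. Between stages the passing members reach −1.58 in untreated cells and −2.10 in the BPA arm, within PGCLCs they reach −0.74, and within EpiLCs none passes. Mrps36 is not drawn.

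The members that fell were largely the same in both arms: 47 passed as lower in both, which is 88.7% of the untreated list and 97.9% of the BPA list. Mrpl17, Mrpl23, Mrpl41, Mrps30, Mrps31 and Mrps35 passed as lower in untreated cells and not in the BPA arm, and Mrpl1 the other way round. For none of these 7 did the difference between the arms pass the interaction test given below. Among large-subunit members with a bacterial counterpart 24 of 30 fell in untreated cells (median −0.86), and among mitochondria-specific ones 12 of 20 (median −0.49). Small-subunit members fell in 8 of 16 with a bacterial counterpart (median −0.56) and in 8 of 10 mitochondria-specific ones (median −0.66). These 4 counts without untreated EpiLC replicate 3 were 22, 10, 7 and 8, with medians of −0.64, −0.27, −0.24 and −0.54.

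**Figure D4:**
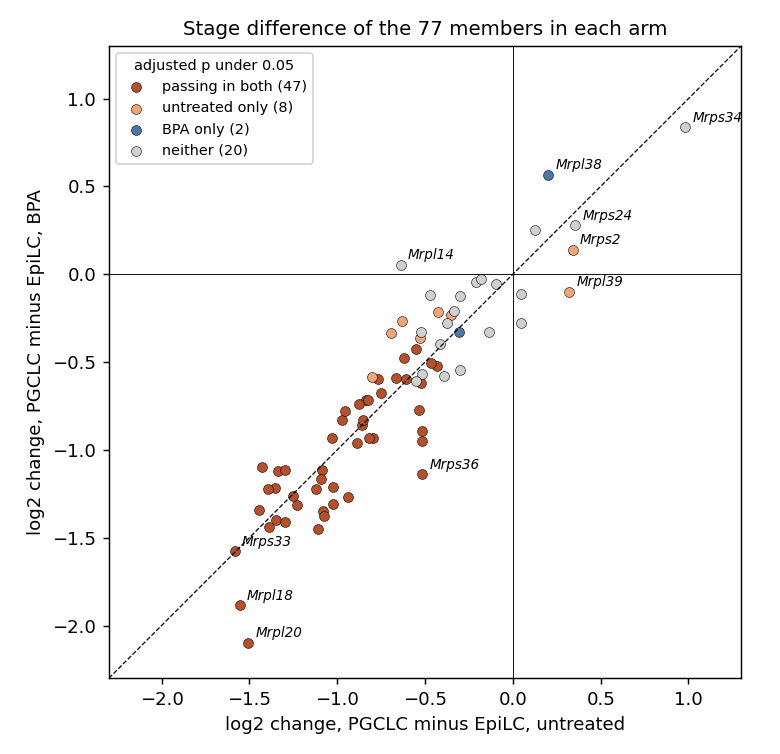
Each of the 77 points is a member, with its fitted log2 change between stages in untreated cells on the horizontal axis and in the BPA arm on the vertical axis, coloured by where the adjusted p was under 0.05, and the dashed line marks equal changes. The 47 members that pass in both arms lie in the lower left, and Mrps34 is farthest on the side of higher PGCLC levels.

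Mrpl20, a large-subunit protein whose bacterial counterpart acts in the assembly of the subunit, had one of the largest differences between stages. Its level was 109.2, 108.0 and 169.9 CPM in untreated EpiLCs, 121.4, 104.8 and 119.4 in BPA EpiLCs, 42.5, 44.6 and 49.0 in untreated PGCLCs, and 25.5, 29.2 and 26.1 in PGCLCs of the BPA arm. All 6 EpiLC libraries were above 100 CPM and all 6 PGCLC libraries under 50. The fitted log2 change between stages was −1.51 ± 0.16 (SE) in untreated cells (2.84-fold lower, edgeR adjusted p = 1.11e-05; −1.31 without untreated EpiLC replicate 3) and −2.10 ± 0.17 in the BPA arm (4.28-fold lower, adjusted p = 7.63e-07).

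Mrpl18, the counterpart of the bacterial protein that binds 5S rRNA, stood at 82.5, 81.9 and 134.8 CPM in untreated EpiLCs and at 31.8, 31.1 and 38.8 in untreated PGCLCs. The BPA EpiLC libraries held 93.6, 88.7 and 88.4 CPM and the PGCLC libraries of that arm 24.8, 23.5 and 24.9. The stages did not overlap in either arm, with log2 changes of −1.56 ± 0.18 (edgeR adjusted p = 1.62e-05, and −1.33 without untreated EpiLC replicate 3) and −1.89 ± 0.18 (adjusted p = 3.19e-06). An exon of Tcp1 on the opposite strand covers 10.1% of its exon bases, and no source used here says whether counting respected the strand.

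Mrps33, a small-subunit protein found in mitochondria alone, had the largest decrease in untreated cells, from 24.4, 25.6 and 37.3 CPM to 9.40, 7.12 and 12.5 CPM. With BPA it went from 29.8, 22.5 and 28.8 to 9.75, 8.88 and 8.60 CPM. The log2 change was −1.58 ± 0.22 in untreated cells (3.00-fold lower, edgeR adjusted p = 8.23e-05, and −1.42 without untreated EpiLC replicate 3) and −1.58 ± 0.22 in the BPA arm (adjusted p = 7.53e-05), and the stages did not overlap in either. Of its sequence windows of 50 bases 21.0% also occur in other genes, so its reads are uncertain to that extent.

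The head-to-head pair Mrps11 and Mrpl46, which encode a small-subunit and a large-subunit protein, fell in both arms. Mrps11 was at 24.7, 19.4 and 44.3 CPM in untreated EpiLCs and 8.45, 11.8 and 12.5 CPM in untreated PGCLCs, a log2 change of −1.43 ± 0.26 (edgeR adjusted p = 0.000556). Mrpl46 was at 44.2, 41.2 and 73.5 CPM and then 22.1, 19.4 and 23.0 CPM, a log2 change of −1.30 ± 0.20 (adjusted p = 0.000206). Their changes without untreated EpiLC replicate 3 were −1.07 and −1.04, and both passed. The changes with BPA were −1.10 ± 0.26 for Mrps11 (adjusted p = 0.0030) and −1.12 ± 0.20 for Mrpl46 (adjusted p = 0.000569), and the stages overlapped for neither gene in either arm. Their exons overlap on opposite strands, over 7.97% of the exon bases of Mrps11 and 12.2% of those of Mrpl46.

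Other members with large decreases in untreated cells were Mrpl47 (−1.44 ± 0.17) and Mrpl33 (−1.39 ± 0.30), both of the large subunit, at −1.30 and −0.94 without untreated EpiLC replicate 3. Among cells of the BPA arm the largest after Mrpl20, Mrpl18 and Mrps33 were Mrps14 (−1.45 ± 0.19), Mrpl9 (−1.44 ± 0.14) and Mrps16 (−1.41 ± 0.22). All of these passed at an adjusted p of 0.00406 or less in both arms.

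Members with known special roles are given next, whatever their change. In untreated cells none of them fell as far as the members above, which were mostly chosen as the largest falls. Mrpl12, Mrps18c and Mrps27 fell further than the median of all members (−0.66). Mrpl12, which sits in the stalk that recruits translation factors and is also reported to bind the mitochondrial RNA polymerase, had means of 91.6 ± 44.5 CPM in untreated EpiLCs and 51.1 ± 3.902 in untreated PGCLCs (SD, n = 3), a log2 change of −0.84 ± 0.25 (edgeR adjusted p = 0.0135), which did not pass without untreated PGCLC replicate 1 (adjusted p = 0.0509) and was −0.42 without untreated EpiLC replicate 3 (adjusted p = 0.0138). Mrpl10, which anchors that stalk, did not pass, at −0.21 ± 0.13 (adjusted p = 0.176). Mrpl45, which lies at the exit of the peptide tunnel and ties the ribosome to the inner membrane, changed by −0.46 ± 0.12 (adjusted p = 0.00719). Mrpl44, a protein with a ribonuclease III-like fold, changed by −0.66 ± 0.14 (adjusted p = 0.00167). Mrpl58, which can also release stalled peptides as a peptidyl-tRNA hydrolase, did not pass, at −0.38 ± 0.30 (adjusted p = 0.313), and without untreated EpiLC replicate 3 its change was 0.16.

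In the small subunit Mrps27, a pentatricopeptide repeat protein, went from 79.9 ± 12.7 to 44.2 ± 4.09 CPM in untreated cells, a log2 change of −0.85 ± 0.12 (edgeR adjusted p = 0.000104). Mrps12, part of the decoding centre, did not pass (−0.30 ± 0.26, adjusted p = 0.346), with a change of 0.12 without untreated EpiLC replicate 3, and with offsets for length and GC content it passed as higher (0.36, adjusted p = 0.0366). The 3 paralogs of the bacterial protein S18 differed in size of change: Mrps18c was at −0.86 ± 0.29 (adjusted p = 0.0246), Mrps18b at −0.52 ± 0.13 (adjusted p = 0.00415) and Mrps18a at −0.18 ± 0.17 (adjusted p = 0.390). Mrps18c no longer passed without untreated EpiLC replicate 3 (−0.41, adjusted p = 0.0803). It did not pass either without untreated PGCLC replicate 2 or 3 (adjusted p = 0.0626 and 0.0660). Mrps30 was at −0.42 ± 0.15 (adjusted p = 0.0332) and did not pass without untreated PGCLC replicate 2 (adjusted p = 0.0662) or 3 (adjusted p = 0.106). Mrps36, now known as a link between subunits of the 2-oxoglutarate dehydrogenase complex, was at −0.52 ± 0.18 in untreated cells (adjusted p = 0.0308) and −1.14 ± 0.19 in the BPA arm (adjusted p = 0.000250). Its untreated call was lost without untreated EpiLC replicate 3 (adjusted p = 0.0895), untreated PGCLC replicate 1 (adjusted p = 0.0589) or untreated PGCLC replicate 3 (adjusted p = 0.108), and its direction turned with the length and GC offsets (0.12).

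In the BPA arm the same members gave −0.71 ± 0.25 for Mrpl12 (edgeR adjusted p = 0.0284), −0.51 ± 0.12 for Mrpl45 (adjusted p = 0.00411), −0.59 ± 0.14 for Mrpl44 (adjusted p = 0.00344) and −0.83 ± 0.12 for Mrps27 (adjusted p = 0.000111). Mrps18b was at −0.95 ± 0.13 (adjusted p = 5.09e-05) and Mrps18c at −0.86 ± 0.29 (adjusted p = 0.0247). Mrpl10, Mrpl58, Mrps12, Mrps18a and Mrps30 did not pass there, with changes of −0.04, −0.28, −0.54, −0.03 and −0.21. The Mrpl12 call of this arm was lost without any 1 of 4 libraries, BPA EpiLC replicate 3 or PGCLC replicate 1, 2 or 3 of the BPA arm (adjusted p from 0.0598 to 0.0974), and that of Mrps18c without BPA EpiLC replicate 1 or 3 or PGCLC replicate 1 or 2 of the arm (adjusted p from 0.0531 to 0.0854).

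A few members were higher in PGCLCs. Mrps2, a small-subunit protein with a bacterial counterpart, was at 84.3, 84.3 and 76.6 CPM in untreated EpiLCs and 105.0, 106.0 and 99.6 CPM in untreated PGCLCs, which do not overlap, and rose by 0.34 ± 0.08 (1.27-fold, edgeR adjusted p = 0.00334). Its change in the BPA arm was 0.14 ± 0.08 (adjusted p = 0.148). Mrpl39, a mitochondria-specific large-subunit protein, rose in untreated cells from 58.5, 59.4 and 71.6 to 83.0, 79.4 and 74.4 CPM (0.32 ± 0.10, adjusted p = 0.0206) and was at −0.10 ± 0.10 in the BPA arm (adjusted p = 0.434). That call was lost without untreated EpiLC replicate 1 or 2 or untreated PGCLC replicate 1 (adjusted p from 0.0651 to 0.0888) and with RLE size factors, and no member was higher in a fit of the 6 untreated libraries alone. Mrpl38, another mitochondria-specific large-subunit protein, rose in the BPA arm from 58.0, 56.3 and 67.2 to 89.2, 86.1 and 93.6 CPM (0.57 ± 0.17, adjusted p = 0.0135), and not without BPA EpiLC replicate 2 (adjusted p = 0.0639). In untreated cells its change was 0.20 ± 0.17 (adjusted p = 0.332).

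The largest positive fitted change in both arms belonged to Mrps34, a small-subunit protein, which is named here after its values were seen. Its level was 4.35, 4.39 and 14.9 CPM in untreated EpiLCs and 11.3, 17.2 and 17.3 CPM in untreated PGCLCs, and the change of 0.98 ± 0.44 did not pass (edgeR adjusted p = 0.0747). Without untreated EpiLC replicate 3 the change was 1.76 and passed (adjusted p = 0.000713), as did the changes of Mrps24 (0.95), Mrpl52 (0.84), Mrpl2 (0.47), Mrpl38 (0.42) and Mrpl15 (0.26), together with Mrpl39 and Mrps2. Exons of Nme3 on the same strand cover 37.0% of the exon bases of Mrps34 and those of Mapk8ip3 on the other strand 63.4%, so its counts are uncertain. In all, 23 members passed as lower in neither arm, among them Mrps5 at 142.0, 142.8 and 164.1 CPM in untreated EpiLCs and 136.6, 146.7 and 136.2 CPM in untreated PGCLCs.

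**Figure D5:**
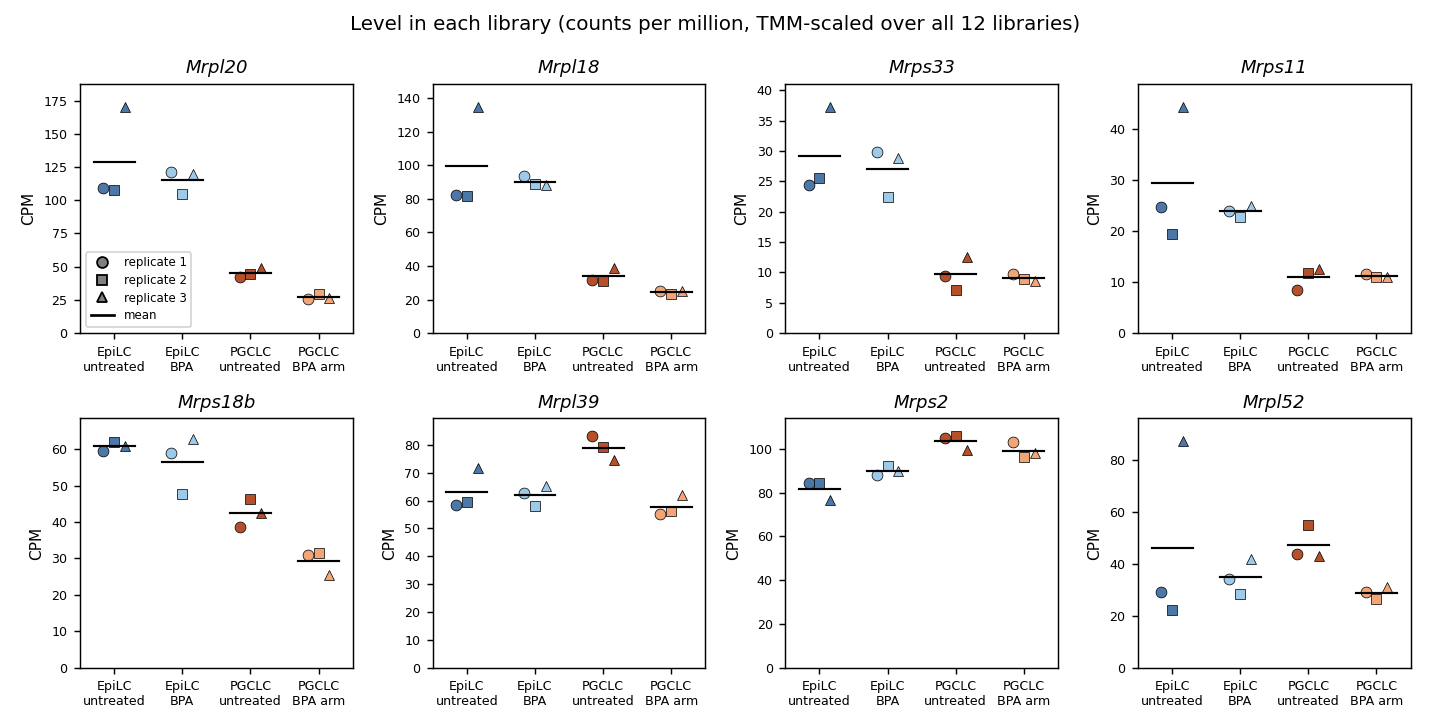
Each panel gives the level of 1 member in CPM on a linear axis from 0, with 1 point for each of the 12 libraries and a line at each group mean. Mrpl20, Mrpl18, Mrps33 and Mrps11 lie lower in all PGCLC libraries than in all EpiLC libraries, Mrps2 lies higher, and Mrpl20, Mrps18b, Mrpl39 and Mrpl52 lie lower in all 3 PGCLC libraries of the BPA arm than in the untreated ones.

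The second question was whether PGCLCs of the BPA arm differ in these genes from untreated PGCLCs. Relative to untreated PGCLCs, 16 of 77 members were lower in the BPA arm and none was higher (edgeR, Benjamini-Hochberg over 16753 genes), where 5.72% of all genes tested were lower and 8.13% were higher, and at an unadjusted p under 0.05 the members gave 30, all of them lower, where 12.8% of all genes were. DESeq2 called 22 lower and 0 higher. The count of lower members was 10 with a replicate block and 10 with offsets for length and GC content. It was 5 with both and 5 in 1 fit of all 12 libraries. Of all genes DESeq2 called 8.7% lower, and these fits 3.56%, 5.2%, 3.34% and 3.11%. The counts of 5 members are too close to 3.34% and 3.11% to set the members apart. The members' median log2 change was −0.20, with 67 of 77 negative, against a median of 0.01 over all genes tested. None of the falls reached 2-fold. For 35 members, 45.5%, all 3 libraries of the BPA arm lay under all 3 untreated ones, which was so for 17.3% of all genes tested.

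Of the 16 members that fell, 9 encode large-subunit proteins (Mrpl15, Mrpl18, Mrpl20, Mrpl21, Mrpl22, Mrpl35, Mrpl36, Mrpl39 and Mrpl52) and 6 small-subunit proteins (Mrps12, Mrps16, Mrps18b, Mrps21, Mrps24 and Mrps25), and the last is Mrps36. Mrpl20 had the largest fall, −0.74 ± 0.10 (1.67-fold lower, edgeR adjusted p = 0.00517), with the 3 untreated libraries at 42.5 to 49.0 CPM and the 3 of the BPA arm at 25.5 to 29.2. Mrpl52, a mitochondria-specific large-subunit protein, fell by 0.71 ± 0.13 on the log2 scale (adjusted p = 0.0116), from 43.9, 55.1 and 43.0 CPM to 29.1, 26.4 and 30.9 CPM. Mrpl21, of the large subunit, went from 48.8, 42.5 and 47.0 to 29.99, 28.4 and 29.97 CPM (−0.63 ± 0.09, adjusted p = 0.00611). For each of these the arms do not overlap.

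Mrps36 went from 19.4, 21.0 and 16.2 CPM to 10.98, 12.7 and 12.1 CPM, a log2 change of −0.65 ± 0.15 (edgeR adjusted p = 0.0252), and 36.2% of its 50-base windows also occur in other genes, first of all Mrps36-ps1, a pseudogene copy by its name. Mrps25, a mitochondria-specific small-subunit protein, went from 29.9, 31.4 and 34.8 to 21.4, 21.1 and 21.9 CPM (−0.56 ± 0.10, adjusted p = 0.0136), and Nr2c2 on the opposite strand covers 69.8% of its exon bases. Mrpl35, of the large subunit, went from 48.3, 40.4 and 43.3 to 29.1, 29.4 and 30.5 CPM (−0.55 ± 0.10, adjusted p = 0.0125). Mrps18b went from 38.7, 46.4 and 42.4 to 30.8, 31.5 and 25.5 CPM (−0.53 ± 0.12, adjusted p = 0.0292). Of the 50-base windows of Mrps18b 30.9% also occur in other genes, and Gm16279 on the opposite strand covers 30.5% of its exon bases. Its counts are uncertain to that extent in every comparison. Of the fixed members only Mrps12 (−0.47 ± 0.10, adjusted p = 0.0230), Mrps18b and Mrps36 fell. The others, Mrpl10, Mrpl12, Mrpl44, Mrpl45, Mrpl58, Mrps18a, Mrps18c, Mrps27 and Mrps30, had changes from −0.32 (Mrpl58) to 0.03 (Mrps30) and did not pass.

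The count of 16 depended on the setting and on single libraries. It was 8 without untreated PGCLC replicate 2, 8 without untreated PGCLC replicate 3, 3 without replicate 1 of the BPA arm and 2 without replicate 2 of that arm, while the number was 14 without untreated replicate 1 and 15 without replicate 3 of the BPA arm. The calls over all genes fell too, to 2.83%, 2.16%, 1.65% and 1.51% lower in the first 4 of these fits. The counts of 3 and 2 members are too close to their shares to set the members apart. In the fits that gave 14 and 15 members 3.16% and 7.3% of all genes were lower. Mrpl20 passed in all 19 alternatives run, with log2 changes from −0.81 to −0.61, Mrpl21 in 18, Mrpl35 in 17 and Mrpl15 in 16, and the other 12 members in 8 to 15. When the 24 members with shared or overlapping sequence were left out, 9 of 53 were lower.

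Markers of other cells moved with this comparison. The endoderm markers summed to 782 to 1220 CPM in untreated PGCLCs and to 3055 to 6699 CPM in the BPA arm, with 8 of 13 higher and all 13 listed in some library of each group, and 4 of 11 early germ cell markers were lower (1649 to 1868 against 1476 to 1584 CPM). The endoderm sums of the BPA arm were 6672, 6699 and 3055 CPM in replicates 1, 2 and 3, and the summed member shares of these libraries were 0.283%, 0.282% and 0.296%. Cytosolic ribosomal protein genes fell in 67 of 83 (median −0.42) and rose in 1, where 5.72% and 8.13% of all genes did. The part of these in the members' change was not tested.

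In EpiLCs no member passed for BPA, in either direction (edgeR, 15252 genes, 0 genes of all tested called, 0%), no member had an unadjusted p under 0.05, where 118 genes of all did (0.774%), and DESeq2, limma voom and limma-trend also gave 0. The fitted changes were negative for 75 of 77, with a median of −0.21 against 0.00 over all genes. This sign rested on untreated EpiLC replicate 3: without it 62 of 77 were positive, the median was 0.06 and again none passed, with 2 at an unadjusted p under 0.05. The members with the smallest p were Mrpl47 (−0.28 ± 0.16), Mrps16 (−0.39 ± 0.25), Mrps2 (0.15 ± 0.11), Mrpl38 (−0.30 ± 0.21) and Mrpl30 (−0.33 ± 0.23), each at an adjusted p of 0.943. Mrps2 and Mrpl50 (0.01 ± 0.12) were the members with a positive change, and Mrps2, at 76.6 to 84.3 CPM untreated and 88.1 to 92.1 CPM with BPA, was the single member without overlap between the arms, where 2.5% of all genes were higher without overlap. The 12 fixed members ranged from −0.41 (Mrpl58) to −0.02 (Mrps36).

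The interaction asks whether the BPA effect in PGCLCs differs from that in EpiLCs. No member passed (edgeR, 17608 genes, of which 1.32% passed, 0.312% as lower and 1.01% as higher), 4 had an unadjusted p under 0.05, all of them lower (5.16% of all genes), and DESeq2 and limma voom gave 0. The smallest p-values belonged to Mrpl39 (−0.42 ± 0.15, adjusted p = 0.213), Mrpl20 (−0.59 ± 0.23, adjusted p = 0.265), Mrps18b (−0.43 ± 0.18, adjusted p = 0.300), Mrps36 (−0.62 ± 0.26, adjusted p = 0.313) and Mrps2 (−0.20 ± 0.11, adjusted p = 0.476). The members' median was 0.00, and the fixed members ranged from −0.62 to 0.21. Without untreated EpiLC replicate 3 the median was −0.26, 67 of 77 members were negative and 8 passed as lower, Mrpl15, Mrpl18, Mrpl20, Mrpl21, Mrpl35, Mrpl39, Mrpl52 and Mrps25, with Mrpl20 at −0.81 ± 0.13 (adjusted p = 0.00970) and Mrpl52 at −1.13 ± 0.25 (adjusted p = 0.0305). In that fit 463 genes of all tested passed as higher and 304 as lower, against 177 and 55 with all libraries.

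Levels were compared between members per length, as CPM per kb of merged exons. In untreated EpiLCs the highest were Mrpl34 (114.8 ± 60.6, SD, n = 3), Mrpl28 (80.9 ± 36.6) and Mrpl20 (77.5 ± 21.3), all large-subunit members. The lowest were Mrpl48 (5.12 ± 1.71), Mrps34 (3.82 ± 2.95) and Mrpl33 (3.10 ± 1.61). All members were measured in the same libraries, and 76 of 77 were higher in untreated EpiLC replicate 3. These SDs hold that shared shift and so cannot show whether members differ, which was not tested. In untreated PGCLCs Mrpl2, whose bacterial counterpart lies near the site of peptide bond formation, was highest at 78.8 ± 6.27 CPM per kb, above Mrpl34 (48.0 ± 3.75) and Mrpl28 (44.0 ± 5.54) by more than their spread. The lowest there were Mrps35 (4.204 ± 0.473), Mrpl48 (2.50 ± 0.463) and Mrpl33 (1.17 ± 0.151). With untreated EpiLC replicate 3 left out the 3 highest of EpiLCs were again Mrpl34 (80.2), Mrpl20 (65.3) and Mrpl28 (59.9) and the 3 lowest Mrpl48 (4.13), Mrpl33 (2.18) and Mrps34 (2.12). Mrpl20 ranked 3 of 77 in untreated EpiLCs with all libraries, 19 in untreated PGCLCs and 35 in PGCLCs of the BPA arm. Per kb of the longest transcript it ranked 1, 3 and 15, so the rank depends on the length used. By that length Mrpl34, Mrpl28 and Mrps35 ranked 9, 5 and 67 in untreated PGCLCs, and Mrpl38 ranked 2. Mrpl2, Mrpl48 and Mrpl33 kept ranks 1, 76 and 77 there.

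The members share a feature of position that the rule did not use. A protein-coding gene on the opposite strand starts within 1000 bases in a head-to-head arrangement for 33 of the 77 members (42.9%), against 14.4% of the 14725 protein-coding genes tested. For 31 of them the neighbour was tested as well. In the untreated stage comparison 14 of these neighbours were lower and 4 higher (median −0.43), beside 25.2% and 30.4% of all genes tested, while of the members beside them 22 were lower (median −0.85). When untreated EpiLC replicate 3 was left out these were 13 and 4 (median −0.25), beside 24.3% and 26.5% of all genes, and 20 (median −0.60). In the other arm 16 neighbours were lower and 6 higher, beside 25% and 32.5% of all genes, and 21 of the members beside them were lower. Mrpl46 and Mrps11 are each other's neighbour and count for both sides. The members also have short transcripts, with a median longest transcript of 1884 bases (488 to 7300) against 3354 for tested coding genes, and across the 77 members the stage change in untreated cells had a Spearman correlation of −0.03 with that length, and across all genes tested it was 0.24, both over genes that share the libraries.

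Other genes of the same pathway were taken from lists of known factors. The counts of each list are to be read beside the shares of all genes tested. Between stages 25.2% were lower and 30.4% higher in untreated cells, and 25% and 32.5% in the BPA arm. Without untreated EpiLC replicate 3 the untreated shares were 24.3% and 26.5%. For the BPA arm in PGCLCs 5.72% were lower and 8.13% higher. Of 5 mitochondrial ribosomal proteins under other symbols 3 fell between stages in untreated cells: Aurkaip1 (−1.10), Chchd1 (−0.82) and Ptcd3 (−0.67), all 3 also without untreated EpiLC replicate 3, where Gadd45gip1 rose by 1.07, while Dap3, a GTP-binding small-subunit protein, was at −0.27 and did not pass (edgeR adjusted p = 0.120). With offsets for length and GC content Chchd1 was at 0.038 (adjusted p = 0.849), with its direction turned. In the PGCLC BPA comparison Chchd1 was the single one of the 5 that fell (−0.79, adjusted p = 0.00265), Ptcd3 being at −0.08 and Dap3 at −0.04. The stage changes in the BPA arm were −1.51 for Chchd1, −0.90 for Aurkaip1, −0.79 for Ptcd3 and −0.16 for Dap3, of which Dap3 did not pass.

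Of 26 genes for assembly of the mitochondrial ribosome and modification of its rRNA 18 fell and 2 rose between stages in untreated cells (median −0.64), or 17 and 3 without untreated EpiLC replicate 3. Ngrn (−1.21) and Rcc1l (−1.19), both needed for the 16S rRNA of the large subunit, fell, and Mettl15 (1.52), an rRNA methyltransferase of the small subunit, rose, as did Tfb1m (0.79). Between stages of the BPA arm 16 fell, among them Rpusd4 (−1.32) and Ddx28 (−1.12), and 2 rose, led by Mettl15 (1.33). None of the 26 passed for the BPA arm in PGCLCs (edgeR; 2 at an unadjusted p under 0.05), where Tfb1m had the smallest p (−0.35, adjusted p = 0.103).

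Of 15 tested translation factors of mitochondria 6 fell and 1 rose in untreated cells, with Metap1d (−1.56), a methionine aminopeptidase, and Tufm (−0.67), the elongation factor that delivers tRNA, among the falls and Mtrf1l (0.69), a release factor, as the rise. Without untreated EpiLC replicate 3, when 16 were tested, 7 fell and 2 rose. Mtrf1l did not pass without untreated EpiLC replicate 1 or 2 (edgeR adjusted p = 0.0537 and 0.0562). The BPA arm had 7 falls between stages and no rise, and Metap1d (−1.13), Gfm1 (−1.01) and Gfm2 (−0.998) changed most. In PGCLCs of the BPA arm against untreated ones 3 fell: Taco1, an activator of cytochrome oxidase subunit translation (−0.83, edgeR adjusted p = 0.0159), and the elongation and recycling factors Gfm1 (−0.34, adjusted p = 0.0261) and Gfm2 (−0.33, adjusted p = 0.0404). Each of these calls was lost without some single library: Taco1 without untreated replicate 3 or replicate 1 or 2 of the BPA arm (adjusted p from 0.0532 to 0.0913), Gfm1 without untreated replicate 1 or 2 or replicate 1 or 2 of the BPA arm (0.0659 to 0.116), and Gfm2 without any of these 4 or untreated replicate 3 (0.0922 to 0.188).

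Of 10 genes of mitochondrial transcription and DNA maintenance 7 fell and 1 rose in untreated cells, with Ssbp1, which coats single-stranded mitochondrial DNA, at −1.22, Mterf1a at −1.18 and Top1mt, a mitochondrial topoisomerase, at −0.95. The counts were 6 and 1 without untreated EpiLC replicate 3. Of the same 10 genes 6 fell and 1 rose in the BPA arm, led by Ssbp1 (−1.33), Mterf1a (−1.13) and Polg (0.97), the DNA polymerase of mitochondria. Mterf1a, at a mean of 4.63 CPM in untreated EpiLCs, did not pass in untreated cells without untreated EpiLC replicate 1 (edgeR adjusted p = 0.0687), nor in the BPA arm without BPA EpiLC replicate 1 or 3 or any of the 3 PGCLC libraries (adjusted p from 0.0589 to 0.111). None of the 10 passed for the BPA arm in PGCLCs (edgeR; 3 at an unadjusted p under 0.05), and Polg had the smallest p there (0.49, adjusted p = 0.0542).

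Among 10 tested nuclear regulators of genes for mitochondria 4 rose and 3 fell in untreated cells, shares near those of all genes tested (30.4% and 25.2%). Without untreated EpiLC replicate 3, when 11 were tested, 4 rose and 2 fell. Mycn and Myc, related transcription factors that promote growth and ribosome synthesis, moved in opposite directions: Mycn was 17.6 CPM on average in untreated EpiLCs and 205.2 CPM in untreated PGCLCs (3.55), and Myc 160.1 and 25.7 CPM (−2.64). Ppargc1b, a coactivator, fell as well (−1.52). In the BPA arm Mycn (3.29), Myc (−2.50) and Ppargc1b (−1.50) changed most. None of the 10 passed for the BPA arm in PGCLCs (edgeR; 3 at an unadjusted p under 0.05), and Yy1 had the smallest p (0.23, adjusted p = 0.0600).

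The cytosolic ribosome is built from another set of nuclear genes, whose counts stand beside the same shares of all genes as those of the lists above. Of its 83 protein genes 58 fell and 3 rose between stages in untreated cells (median −0.80; 56 and 8, median −0.50, without untreated EpiLC replicate 3), 65 fell and 2 rose in the BPA arm (median −0.92), and in PGCLCs the BPA arm was lower for 67 and higher for 1. Their share of the counts was 10.6% ± 3.24 in untreated EpiLCs, 8.94% ± 0.493 in BPA EpiLCs, 6.40% ± 0.195 in untreated PGCLCs and 4.90% ± 0.0805 in the BPA arm (SD, n = 3). Many of these genes have near-identical copies in the genome, so their counts are uncertain. When they were left out of the counts before scaling, the mitochondrial members gave 54 lower and 2 higher in the untreated stage comparison and 16 lower in the PGCLC BPA comparison.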

How the data were processed

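The kit that preserves strand was NuGEN Universal Plus, per the labels' protocols. STAR, HTSeq, FastQC, bcl2fastq 2.19.1.403 and the build mm10 are named in the submitters' processing notes, without further versions, annotation or strand setting. The deposited counts are whole numbers of reads for each Ensembl gene in each library, and no listed value is under 10. Summary rows that name no gene stayed out, among them no feature (4.42% to 10.7%) and ambiguous (4.56% to 6.07%). Ambiguous took 5.75% to 6.07% in untreated PGCLC libraries and 4.56% to 5.07% in those of the BPA arm. Rows for alignments that were not unique held 168000, 163810 and 212070 in PGCLC replicates 1, 2 and 3 of the BPA arm. They held 1448753 in BPA EpiLC replicate 2 and 0 in every other library. The part of these differences between arms in the results was not tested. The deposited CPM tables, 1 per stage, were normalised apart by the authors and served for symbols and in an alternative. Symbols, positions and lengths came from GENCODE M21 (mm10; 21695 of 21728 IDs found) and promoters from RefSeq.

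Groups followed the sample titles. Unlisted genes entered as 0. After filterByExpr and scaling by the trimmed mean of M values (TMM), edgeR 4.0.16 in R 4.3.3 gave quasi-likelihood tests with Benjamini-Hochberg adjustment over all genes at 0.05; every adjusted p is from this test unless named otherwise. BPA effects were fitted within a stage (6 libraries), stage differences and the interaction in 1 fit of 12. Printed CPM come from the scaling of all 12. Scripts were tested on simulated data. Alternatives used limma 3.58.1, DESeq2 1.42.0, other scalings and filters, a replicate block, offsets for length and GC content, and each library left out; leaving out members with at least 10% shared or overlapping sequence, and extending the values without untreated EpiLC replicate 3 to lists, neighbours and levels, were chosen after seeing the data.

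Named in each comparison were the 6 largest rises and falls among passing members, or the 5 smallest p where none passed, 12 fixed members (given as a range where no member passed), and from each other list the 3 largest passing changes or the smallest p, with Dap3 and Ptcd3 always. All passing members of the PGCLC comparison, Mrpl46, Mrps34, Mrps5, Mrpl2, Tfb1m in untreated cells and Mtrf1l were named after their values were seen. The members and lists were chosen with earlier results of these data known. Mrpl53, Slirp, Mtres1 and mitochondrially encoded genes were not analysed here; Pdf and Ppargc1a were below the filter.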

Additional observations from a re-analysis of the deposited data

How the results depend on the processing

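With a replicate block the 16 lower members of the PGCLC BPA comparison became 10, with offsets for length and GC content 10, with both 5, in 1 fit of all 12 libraries 5 and without members with shared sequence 9; leaving out a library gave 2 to 15. Same-numbered libraries of different groups correlated at −0.05 to 0.06 in their deviations, some best with their own number and some not. With 3 libraries per group the deviations are not independent. These correlations therefore cannot decide whether libraries of the same number belong together. In the untreated stage comparison the block gave 50 lower and 3 higher, and 4197 and 4909 of all 17608 genes. The 2 higher members there became 1 with RLE size factors, 4 with unlisted genes counted as 9, 10 with length and GC offsets, 9 with the block as well, 0 in a fit of 6 libraries and 1 to 8 without a library. Over all genes the higher calls moved from 5348 of 17608 to 5005 of 17608, 6478 of 21728, 5211 of 17586, 4701 of 17586 and 4145 of 16293 in the first 5 of these. The 53 lower ones of untreated cells became 38 with unlisted genes as 9, 43 with the offsets, 43 in a fit of 6 libraries and 46 to 59 without a library. Over all genes the lower calls moved too, from 4439 of 17608 to 3836 of 21728, 4765 of 17586 and 3725 of 16293 in the first 3 of these. In the BPA arm the 1 higher became 4 with unlisted genes as 9, 5 with the offsets with or without the block, 3 in a fit of 6 libraries and 0 to 1 without a library. The higher calls over all genes were 5717 of 17608 in the main fit and 6893 of 21728 with unlisted genes as 9. With the offsets they were 5818 of 17586, with the block as well 5280 of 17586, and in the fit of 6 libraries 6379 of 16287. The 48 lower ones of the BPA arm became 36 with unlisted genes as 9, 43 with the offsets, 60 in a fit of 6 libraries and 42 to 47 without a library. Over all genes the lower calls of this arm moved from 4409 of 17608 to 3635 of 21728, 4685 of 17586 and 5174 of 16287 in the first 3 of these. Counting unlisted genes as 9 moved the median of all genes from 0.13 to 0.01 in that arm and from 0.07 to 0.04 in untreated cells. For the interaction the offsets gave 1 lower (Mrpl20), where 117 of all 17586 genes were lower, and leaving out a library 0 to 8. With cytosolic ribosomal protein genes out of the denominator the shares were 0.497% in BPA EpiLCs, 0.356% in untreated PGCLCs and 0.302% in the BPA arm. The cause of these differences was not tested.

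Changes of sign were as follows, in values that passed neither before nor after unless stated. In EpiLCs Mrpl50 was −0.0016 with RLE or DESeq2, −0.0039 in 1 fit of 12 and −0.050 to 0.065 without a library. For BPA in PGCLCs Mrpl10 was −0.0036 with unlisted genes as 9 and −0.069 to 0.047 without a library, Mrps30 −0.040 to 0.071 without a library, and Mrps18c 0.050 with the offsets and 0.036 with the block as well. In untreated cells unlisted genes as 9 gave 0.025 for Mrpl10 and 0.055 for Mrps18a. There the offsets gave 0.21 for Mrpl10, 0.36 for Mrps12, which then passed as higher (adjusted p = 0.0366, and 0.0266 with the block), 0.12 for Mrps36, which passed as lower without them, and 0.038 for Chchd1, which did too; with the block as well these were 0.21, 0.37, 0.13 and 0.046. Mrpl52 was −0.034 with RLE and −0.042 with DESeq2. Without a library the ranges were −0.64 to 0.16 for Mrpl58, −0.56 to 0.12 for Mrps12, −0.32 to 0.039 for Mrps18a, −0.067 to 0.47 for Mrpl2 and −0.29 to 0.84 for Mrpl52, where the highest values of Mrpl2 and Mrpl52 passed. In the BPA arm unlisted genes as 9 gave 0.24 for Mrpl10, 0.074 for Mrps30, 0.25 for Mrps18a, 0.12 for Dap3, 0.18 for Mrpl39 and 0.00054 for Mrpl52; the offsets gave 0.21, 0.072 and 0.22 for Mrpl10, Mrpl39 and Mrpl52, and 0.21, 0.071 and 0.22 with the block; and Mrps18a ran from −0.12 to 0.055 without a library.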
